A study of Mus musculus with 6 samples.

Results

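Pleiotrophin (gene Ptn) and matrix Gla protein (gene Mgp) are the 2 genes described here, out of 29069 loci joined from the records of both cell types. Each was counted as the alignment records whose 5′ end lay on the minus strand of chromosome 6 (genome build mm9), within a given window of 96500 nt for Ptn and of 4000 nt for Mgp. The Ptn records found there had 5′ ends from 36664966 to 36694430 and the Mgp records from 136821003 to 136824326. The genes were chosen by their higher record counts in fibroblasts than in stem cells in these same data, so the difference between the cell types is given as a description, with no test.

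The cells were mouse embryonic stem cells (mES) of line V6.5, grown with leukemia inhibitory factor (LIF), and mouse embryonic fibroblasts (mEF), a commercial line that the labels place at 10.5 p.c. and whose like medium lists no LIF. The labels name no treatment and no engineered allele. Single cells were lysed in drops, their polyadenylated RNA was primed with barcoded oligo-dT, and the transcripts were sequenced near their 3′ ends in 6 libraries, each labelled with both cell types. The authors assigned barcodes to a cell type and pooled the alignments into an mES aggregate and an mEF aggregate, so each cell type is 1 pool without labelled replicates. The sources used here do not say whether barcodes were assigned by the known origin of the cells or by clustering of their expression. In the second case the aggregates would be defined in part by transcript counts, and this was not tested. Whether the labelled cell types carry their defining markers was not analysed here.

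Both genes encode small secreted proteins of mesenchymal tissues. Pleiotrophin is a heparin-binding growth factor of the midkine family that is held on cell surface proteoglycans such as syndecans and signals through the receptor phosphatase Ptprz1. Matrix Gla protein is a matrix protein whose glutamate residues are carboxylated in a vitamin K-dependent step. It inhibits the calcification of cartilage and vessel walls and binds bone morphogenetic proteins.

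The mES aggregate held 750739 records of 612194 reads at 53947 distinct positions, and the mEF aggregate held 459005 records of 387359 reads at 25252 positions. By their read names the records came from 3 sequencing runs, numbered in order of size. In mES the runs held 438528, 203401 and 108810 records, and in mEF 293937, 135387 and 29681. Levels are given as CPM, records per 1000000 records of the same aggregate or of the same run of it. Intervals in parentheses are exact Poisson intervals at 95%. They cover the counting error of records only. PCR copies of a molecule are counted as separate reads, so the intervals may be too narrow for molecules, and an overlap of intervals is not a test. In pooled reads, fewer cells with a transcript and fewer transcripts per cell cannot be told apart. From a mix of human and mouse cells, the study estimated that most barcodes likely hold some transcripts of other cells. Whether the few mES records of either gene came from such crosstalk was not tested.

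Ptn was seen almost entirely in mEF. The mEF aggregate held 365 Ptn records, with 235 in run 1, 117 in run 2 and 13 in run 3. The mES aggregate held 3 Ptn records, all of them in run 3 and none in runs 1 and 2. Every run thus held more Ptn records in mEF than in mES, although the mES runs were all deeper. The level of Ptn in mEF was 795 CPM (716 to 881), and in mES it was 4.00 CPM (0.824 to 11.7). This is a 199-fold ratio, with an exact conditional interval of 67.6 to 969 that reflects the 3 mES records.

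Within runs, the level of Ptn in mEF was 799 CPM (701 to 909) in run 1 and 864 CPM (715 to 1036) in run 2, values whose intervals overlap. With 3 counts in place of 0 in each mES run, the level was at least 117-fold higher in mEF in run 1 and at least 58.6-fold higher in run 2. In run 3 the mEF level was lower, 438 CPM (233 to 749), against 27.6 CPM (5.69 to 80.6) in mES. The ratio in run 3 was 15.9 (4.37 to 86.9). A single locus on chromosome 17 took 28.0% of the mEF records of that run. With the records of that locus left out of the totals, Ptn stood at 824 CPM (741 to 915) in runs 1 and 2 of mEF and at 608 CPM (324 to 1040) in run 3. The run 3 level rests on 13 records at 4 positions, and why it differed from that of runs 1 and 2 was not tested.

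Mgp was also much higher in mEF, with a small number of records in mES. The mEF aggregate held 392 Mgp records, with 271 in run 1, 121 in run 2 and none in run 3. The mES aggregate held 15, with 10 in run 1, 5 in run 2 and none in run 3. Runs 1 and 2 therefore carried every Mgp record of both cell types. The level of Mgp in mEF was 854 CPM (772 to 943) and in mES 20.0 CPM (11.2 to 33.0), a ratio of 42.7 (25.6 to 77.1). The ratio was 40.4 (21.6 to 85.3) in run 1 and 36.4 (15.2 to 114) in run 2, with overlapping intervals. For both genes, every position of run 2 was also in run 1 of the same aggregate, so the likeness of these runs is not that of independent replicates.

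In mEF, run 3 held 0 Mgp records. At the level of runs 1 and 2, 913 CPM (825 to 1008), its 29681 mEF records would have held 27.1, if each record were an independent draw. Records share positions, so this number stands for fewer positions. How many cannot be read from the 24.5 records per position of Mgp in mEF, which come from runs 1 and 2 together. In run 3 the 29681 mEF records lay at 5662 positions, and the 13 of Ptn at 4. Whether depth accounts for the 0 was not tested. The exact Poisson upper limit for the 0 records of run 3 was 124 CPM, or 173 CPM with the chromosome 17 locus left out. In mES, the upper limit for the 0 records of run 3 was 33.9 CPM, above the mES level of 23.4 CPM (13.1 to 38.5) in runs 1 and 2. In mES a change between runs was thus not detectable at this depth. The libraries in each run are not named in the records, and whether the cells or the preparation differed was not tested.

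**Figure D1:**
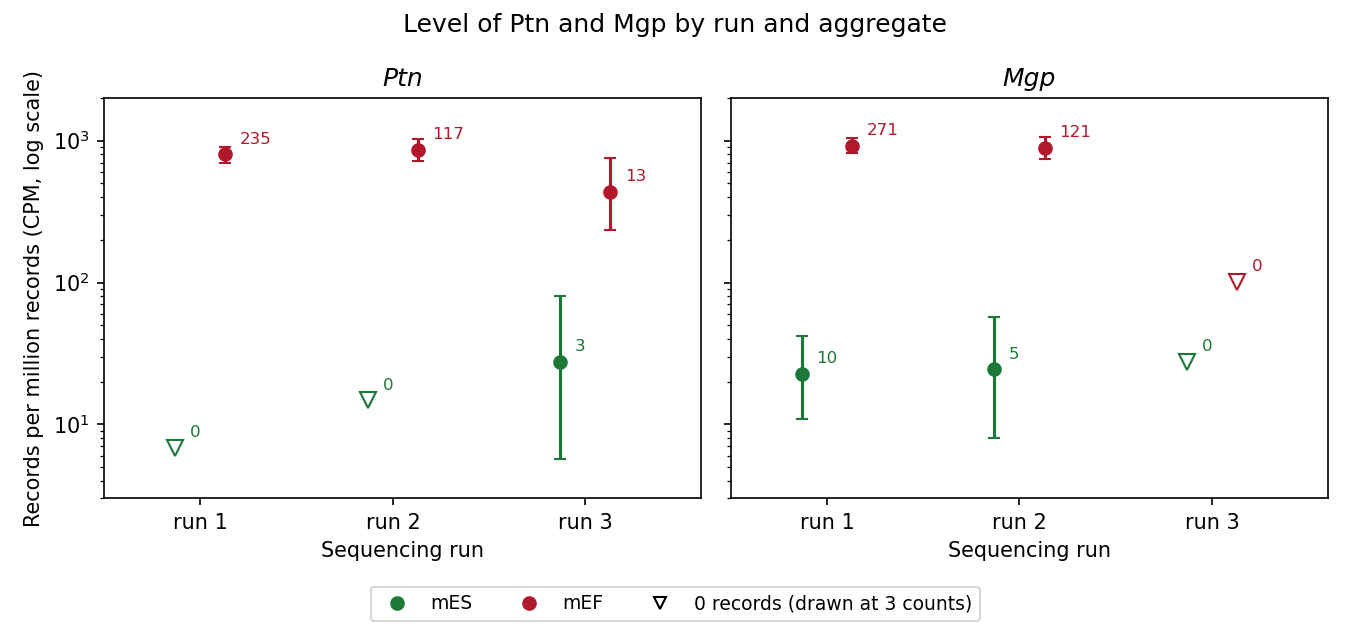
Levels of Ptn (left) and Mgp (right) in CPM on a log axis, for each sequencing run, with mES in green and mEF in red. Points carry exact Poisson 95% intervals and their number of records, and open triangles mark 0 records, drawn at the level of 3 counts. The mEF points of runs 1 and 2 lie between 799 and 922 CPM for both genes, and in run 3 Ptn has 13 mEF records and Mgp has none.

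Both genes passed a 4-fold ratio toward mEF, in records and in distinct positions. Of 4321 loci with 50 or more records, 1061 did so in records, which is 24.6%. Of 1119 loci with 10 or more distinct positions, 100 did so in positions, which is 8.94%. As the genes were picked for this ratio, nothing is read from these shares. In distinct positions, Ptn had 19 in mEF and 1 in mES, a ratio of 40.6 (6.45 to 1687) after scaling to all positions of each aggregate. Mgp had 16 in mEF and 2 in mES, a ratio of 17.1 (4.02 to 153). Both ratios were thus smaller in positions than in records, with wide intervals. Copies of a molecule and separate molecules that share a 5′ end both count as 1 position, and the records hold nothing that separates them.

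By mEF records, Ptn ranked 146th and Mgp 133rd beside the 11058 loci with an mEF record. Many loci thus held more mEF records than either gene. The genes were picked for more records in mEF than in mES, so the mES counts below describe that choice and nothing is read from them. Of the loci with at least as many mEF records as Ptn, 2 had no more mES records than its 3. None with at least as many mEF records as Mgp had as few mES records as its 15. Of 93 loci with a number of mEF records like that of Ptn, 292 to 454, the median held 302 mES records, and 3 of them held up to 3. Of 78 loci with a number like that of Mgp, 314 to 486, 4 held up to 15 mES records.

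**Figure D2:**
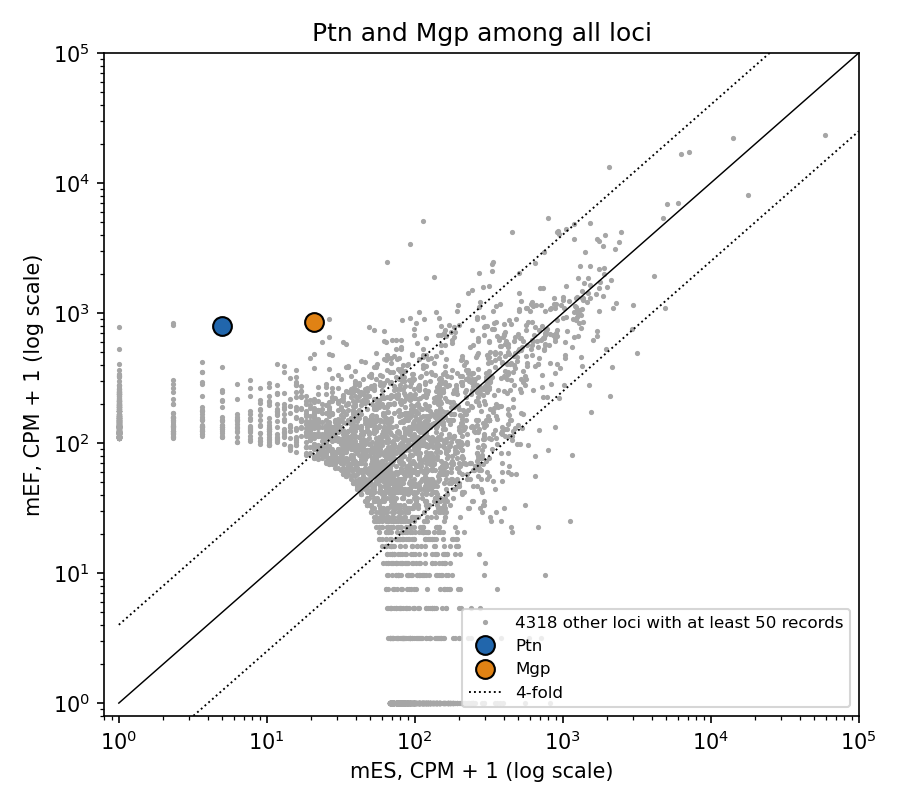
CPM + 1 in mES (horizontal) and mEF (vertical), both on log axes, for the other loci with at least 50 records (gray) and for Ptn (blue) and Mgp (orange) as window totals. The solid line marks equal levels and the dotted lines a 4-fold ratio. Ptn, at 4.00 CPM in mES, and Mgp, at 20.0 CPM, lie far to the left of most loci with a like mEF level of 795 or 854 CPM. They were picked for such a difference.

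The records of both genes had a single orientation and a high mapping score. All 368 Ptn records and all 407 Mgp records had the highest mapping score that the aligner gave, whereas 77.8% of all mEF records and 77.9% of all mES records did. With only records of that score, 3456 loci held at least 50 records, beside 4321 with all records. The share of loci whose records all have this score was not counted, so it is not read as particular to these genes. On the plus strand of both windows there were 0 records. With 3 counts in place of 0, the opposite-strand share would be 0.815% for Ptn and 0.737% for Mgp. Only Ptn in run 3 held a read listed more than 1 time, since its 13 mEF records came from 12 reads.

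The Ptn records marked the end of the gene. Of the 365 mEF records, 364 lay in a locus of 760 nt, from 36664966 to 36665726 on chromosome 6 (mm9), at 18 positions. In the GRCm38 annotation (GENCODE M21), the last exon of the transcript Ptn-201, exon 5, is 834 nt long and holds the end of the coding sequence and the 3′ untranslated region. The 5′ ends of the locus reach 794 nt above the lowest base covered by a Ptn record, which is within the length of that exon. Coordinates were not carried between builds, and only lengths were compared. The position with the most records, 36665120, lay 154 nt above the lowest 5′ end and held 106 of the gene's mEF records. The 3 highest positions together held 47.9%. No record lay where the shorter-spanning transcript Ptn-202 would end, which is annotated within intron 4 of Ptn-201. By lengths, its last exon of 1981 nt starts with exon 4 of Ptn-201, annotated 26349 to 26510 nt from the end of Ptn-201. The 3 mES records lay far below this, 2284 nt above the lowest base covered by a Ptn record. The only mEF record outside the locus lay near exon 2.

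That record was a gapped alignment in run 3, with its 5′ end at 36694430 and a span of 933 nt. Alignments without a gap span 45 nt in this run, which leaves 888 nt. In the GRCm38 annotation, intron 2 of Ptn is 888 nt long, a length that 78 of 284220 annotated introns share. The distance from the lowest base covered by a Ptn record to this 5′ end was 29498 nt, and exon 2 is annotated between 29460 and 29576 nt from the end of Ptn-201. The joint between the exons on either side of that intron lies within the coding sequence, on the minus strand of chromosome 6 (GRCm38), between the last 30 bases of exon 2 (36744389 to 36744418) and the first 30 bases of exon 3 (36743471 to 36743500). It is shown because the gap in this record has the length of the intron between these exons, and 30 bases are given on each side without regard to how far the read reaches into either exon. The sequence is that of GENCODE M21, as bases 415 to 474 of Ptn-201, 5′ to 3′, with exon 3 in capitals, and not that of the read, which the records do not hold.
Ptn exon 2 to exon 3: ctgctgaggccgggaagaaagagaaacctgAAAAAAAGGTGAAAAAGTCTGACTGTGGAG

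The 3 mES records of Ptn lay elsewhere. They came from 3 reads with 5′ ends at the single position 36667216, and no mEF record shared it. This position is 2284 nt above the lowest base covered by a Ptn record, past the 834 nt of the annotated last exon and within the reach of intron 4, which is annotated at 25515 nt. The last-exon locus itself held 364 mEF records and 0 mES records, 793 CPM (714 to 879) against 0 CPM (0 to 4.91). With 3 counts in place of 0 in mES, the ratio was at least 198.

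The Mgp records fell into 2 loci that differed between the cell types. The lower locus, from 136821003 to 136821281, held 257 mEF records at 13 positions and 0 mES records. The upper locus, from 136824321 to 136824326, held 135 mEF records at 3 positions and all 15 mES records at 2 positions. The mES records of Mgp thus lay in the upper locus alone, with an exact binomial interval of 78.2% to 100%, while 34.4% (29.7 to 39.4) of the mEF records did. These shares count copied records, and in positions they come to 2 of 2 in mES and 3 of 16 in mEF. The level of the lower locus was 560 CPM (494 to 633) in mEF, at least 140-fold higher than in mES with 3 counts in place of 0. The level of the upper locus was 294 CPM (247 to 348) in mEF and 20.0 CPM in mES, a ratio of 14.7 (8.61 to 27.0).

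The lower locus spans 278 nt, against 354 nt for the last of the 4 exons of Mgp in the GRCm38 annotation, which holds the end of the coding sequence and the 3′ untranslated region. The upper locus sits at the other end of the gene. The 4 positions in it lie 3352 to 3357 nt above the lowest base that an Mgp record covers, and the annotated gene spans 3389 nt. If the gene has this span in mm9 too and holds all these records, they start at most 36 nt inside the annotated start of the transcript, in an exon 1 of 154 nt. The spliced transcript, Mgp-201, is 617 nt long, against 1614 nt for Ptn-201, whose start region held no record. No Mgp record crossed an intron, and none lay between the loci.

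Within the upper locus, 1 position was shared by the cell types. The mEF records fell on 136824324 with 15, 136824325 with 56 and 136824326 with 64 records. The mES records fell on 136824321 with 9 and 136824326 with 6 records. Position 136824326 was thus the only position of either gene with records of both cell types, and no read name was found in both aggregates. How many of the 53947 mES and 25252 mEF positions over all loci are held by both aggregates was not counted. Nothing is therefore read from this number. Whether reads at the shared position were assigned to the wrong cell type was not tested.

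**Figure D3:**
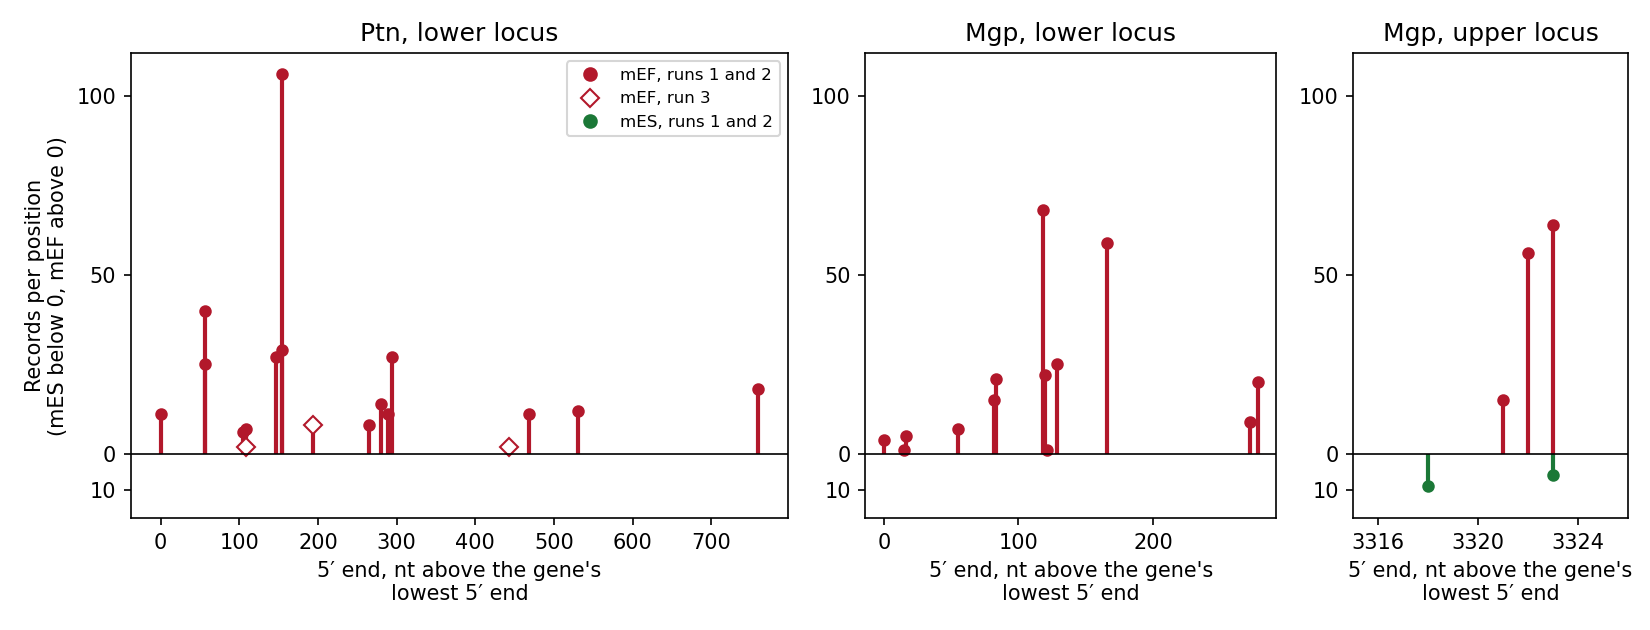
Records at each 5′ end, in nt above the lowest 5′ end of the gene, for the lower locus of Ptn (left) and the lower (middle) and upper (right) loci of Mgp, with mEF upward in red and mES downward in green. Filled points have records of runs 1 and 2 and open diamonds are mEF positions of run 3. The highest Ptn position holds 106 mEF records, the open diamonds of run 3 stand at positions of their own, and mES records appear in the upper Mgp locus only.

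Both genes had records at several positions in mEF, filled unevenly. Ptn had 19.2 records per position and Mgp 24.5. The highest Mgp position, 136821121, held 68 records, 17.3% of the gene's mEF total, and the 3 highest held 48.7%. Among the 93 loci with a like number of mEF records, 73 had fewer positions than the 19 of Ptn, 4 had as many and 16 had more, with a range of 6 to 30 and a median of 16. Among the 78 loci like Mgp, 29 had fewer than its 16 positions, 9 had as many and 40 had more, with a median of 17. Ptn thus stood in the upper part of its range and Mgp near the middle.

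Runs 1 and 2 shared their positions. All 15 positions of Ptn in run 2 of mEF were the 15 of run 1, and all 12 positions of Mgp in run 2 were among the 16 of run 1. The highest Ptn position took 30.2% of the Ptn records in run 1 and 29.9% in run 2, and the highest Mgp position took 18.5% and 14.9%. The 2 mES positions of Mgp were in both runs too. In run 3, none of the 4 Ptn positions of mEF had a record in runs 1 or 2. Over all loci, mEF had 19139 positions in run 1, 17253 in run 2, 5662 in run 3 and 25252 in all runs together. The share of all positions that the runs have in common was not counted. The sharing seen here is therefore not read as a trait of these genes. The reads of run 3 are also longer, 45 nt against 35 nt. The nearest of its positions to the others, 36665074, lay 1 nt below a position of run 1. Run 3 thus gave the only Ptn positions not seen in runs 1 and 2, with 12 reads at 4 positions in mEF and 3 reads at 1 position in mES.

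**Figure D4:**
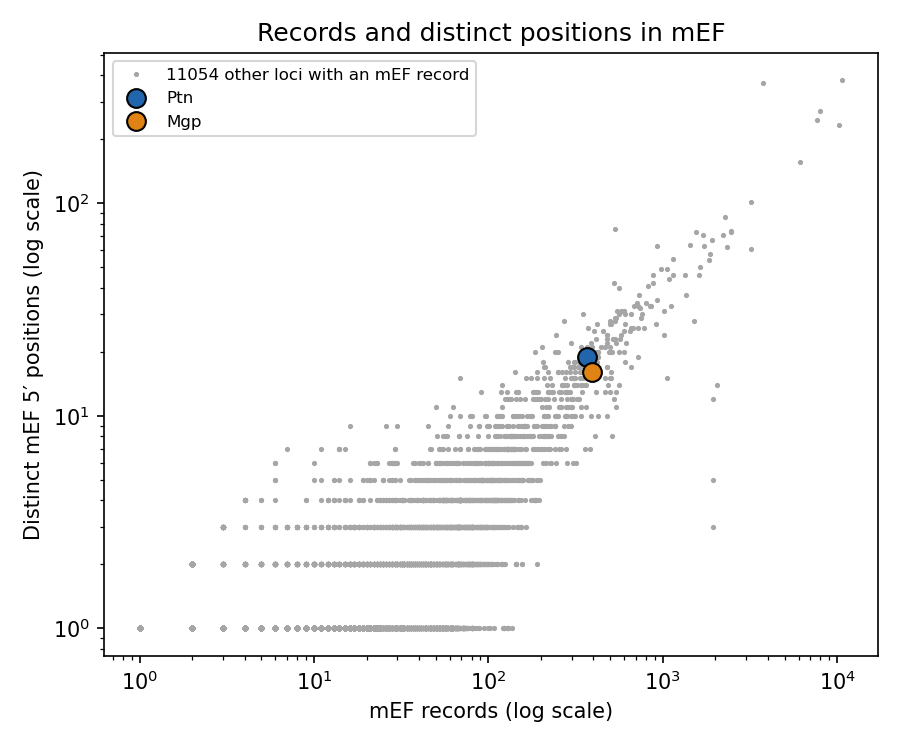
Number of mEF records (horizontal) and of distinct mEF 5′ positions (vertical), both on log axes, for the other loci with an mEF record (gray) and for Ptn (blue) and Mgp (orange). Ptn, with 365 records at 19 positions, and Mgp, with 392 at 16, lie within the cloud of loci of like record number.

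The loci most like each gene were found by the Euclidean distance of log2(CPM + 1) over 6 values, the 2 aggregates in each of 3 runs, among 4321 loci. They are given by position in mm9 and not by name. For Mgp the nearest was on the plus strand of chromosome 6 from 117124652 to 117124995, at a distance of 0.659 against a median of 8.44, with 413 mEF and 19 mES records and none in run 3. The next were on chromosome 13 from 13604181 to 13604444, at 1.29, and on chromosome 4 from 43531122 to 43532373, at 1.97, both also without records in run 3. For Ptn the nearest loci were farther away. They lay on chromosome 4 from 11347553 to 11347570, at 3.07, on chromosome 17 from 34165272 to 34165487, at 3.44, and on chromosome 8 from 131027122 to 131027234, at 3.55, against a median of 14.1. All 3 had mES records in run 3 only and fewer mEF records than Ptn, 98, 86 and 92. The nearest locus to Ptn was thus several times farther from it than the nearest locus to Mgp, under a measure in which records at 0 in a run weigh strongly.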

How the data were processed

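The deposited alignments are BED records of reads that, per the labels and the study's methods, the authors aligned with TopHat to mm9, assigned to mES or mEF by barcode and pooled over 6 libraries. The study's methods take barcodes above a minimum number of unique transcripts as cells. Whether the deposited records were filtered in this way, and the TopHat version, are not given in the sources used here. Each record carries coordinates and a mapping score, for which the authors deposited 4 values. The records carry no barcode or library, so cells were not counted. Here the 5′ end was the start (plus strand) or end (minus strand), counted from 1. Records were counted per window and scaled to CPM. Loci were built by joining neighboring 5′ ends of the same strand, in both aggregates together, up to a gap of 500 nt. An empty aggregate was taken at 3 counts. Intervals at 95% are exact Poisson, exact binomial, or exact conditional binomial for ratios.

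The members, lists and alternatives were chosen with earlier results of these data known. The loci named as most alike are the 3 nearest per gene with at least 50 records. The deposited barcode list was not used. The annotation in hand (GENCODE M21) is of GRCm38, so only its lengths were compared with the records. For the same reason the receptors and partners of both proteins and cell type markers were not analysed here. Alternatives were distinct positions, reads, the highest score, both strands, other totals, single runs, other windows, joining distances of 200 and 2000 nt, and minimums of 10 and 200. Both steps, joining and ratios, were first run on simulated data with known answers. Python 3.11.15, numpy 2.4.6, pandas 2.3.3, scipy 1.17.1 and matplotlib 3.10.9 were used.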

Additional observations from a re-analysis of the deposited data

How the results depend on the processing

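Neither gene changed direction under any alternative that gave a ratio. The log2 ratio of mEF to mES, 7.64 for Ptn and 5.42 for Mgp, stayed within its counting interval under the highest mapping score, reads, both strands, every other total, runs 1 and 2, run 1 and a window wider by 1000 nt. It was 5.34 for Ptn and 4.10 for Mgp in distinct positions. For Ptn it was at least 5.87 in run 2, a bound set by the depth of mES, and 3.99 in run 3, where the mEF level was lower and all 3 mES records lay, and for Mgp it was at least 7.13 with the lower locus alone. Median-of-ratios scaling moved every log2 ratio by -0.45. The mEF levels of Ptn and Mgp, 795 and 854 CPM, were 940 and 1012 over reads, 1022 and 1098 with the highest mapping score only, since both totals are smaller, and 681 and 732 with median-of-ratios scaling. In run 3 they were 438 and 0, and Mgp was 634 CPM in distinct positions and 560 in its lower locus alone. The number of loci over 4-fold higher in mEF, 1061 of 4321, was 13 of 132 with at least 50 distinct positions, 517 of 2607 in run 1, 144 of 995 in run 2, 19 of 111 in run 3, 3598 of 15083 at a minimum of 10 records and 111 of 750 at 200. Both the loci compared and the share of them called changed, and the cause was not tested. No paired analysis was possible because each cell type is 1 pool.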
